A study of Mus musculus with 4 samples.

Results

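The Ezr-high cells are cells rich in RNA of Ezr, the gene of ezrin, and poor in RNA of the glutamate transporter gene Slc1a3, the colony-stimulating factor receptor gene Csf1r and the tight-junction gene Cldn5. The cells were chosen by their raw counts: a cell was taken as Ezr-high when it held at least 20 gene counts in all, at least 8 counts of Ezr, fewer than 5 of Slc1a3, fewer than 3 of Csf1r and fewer than 5 of Cldn5. This chose 6714 of 863580 segmented cells, of which 794833 held at least 20 gene counts and were kept. The 4 coverslips held 1463, 1525, 1363 and 2363 of them. Since the rule used the counts of these 4 genes, they are given as a description and were not tested, and neither were Gpc3 and Ror1, which came with the working name of the cells.

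The cells were measured by MERFISH, an imaging method that reads barcoded probes over many rounds and so counts transcripts in the tissue, here of 140 genes, with 40 blank barcodes that match no probe. All sections were 10 µm coronal brain sections of mice at postnatal day 5, in which the whiskers of the right snout had been lesioned at postnatal day 4, 24 h before. The female coverslips 3 and 4 and the male coverslips 1 and 2 each carried 1 section of a Cx3cl1(-/-) mouse, which lacks the chemokine fractalkine, and 1 section of a wild-type mouse. The files do not say which section or which cell has which genotype or lies in which hemisphere, so neither was assigned, every value pools both genotypes, and there was no unlesioned animal among the groups. The labelled tissue is barrel cortex, but the sections span whole coronal slices, and the Ezr-high cells were taken from all of each.

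The ventricles of the newborn brain are lined by radial glia and by the ependyma that forms from them, and the choroid plexus, a folded epithelium that secretes cerebrospinal fluid, hangs into them. Ezrin ties membrane proteins to the actin cores of microvilli, which the fluid-facing side of such epithelia carries. Wnt ligands are lipid-bound proteins that are carried out of the cell by Wls and bind Frizzled receptors with the co-receptors Lrp5 and Lrp6. Secreted Frizzled-related proteins, the products of the Sfrp genes, bind Wnt ligands outside the cell, and syndecans and glypicans are heparan sulphate proteins of the cell surface that bind many growth factors.

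Depth set limits on all values. Gene counts per cell had medians of 123 to 268 over the coverslips, and the Ezr-high cells held medians of 169, 136, 194 and 213 gene counts on coverslips 1 to 4, against 161, 162, 185 and 274 in all other kept cells. Their median volume was 704, 731, 685 and 709.5 units, against 759.6, 837, 826 and 819.7 in the others. The highest of the 40 blanks reached 0.198, 0.138, 0.278 and 0.286 counts per Ezr-high cell, against 0.340, 0.332, 0.258 and 0.195 per other cell, and a level at or below that of the highest blank is not a measured level. A patch of coverslip 2 with 128 Ezr-high cells held few counts of genes such as Ctnnb1, Vim and Glul and is described with the masses. No kept cell had the same counts and volume as a cell of another coverslip. Nothing in the labels says that the 4 coverslips came from separate litters, so p-values measure only the spread between these coverslips.

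Most Ezr-high cells lay together in a few dense groups at similar places of the sections. Of their 10 nearest kept cells, a mean of 49.5, 46.0, 46.3 and 47.4% were Ezr-high too on coverslips 1 to 4, where 0.850, 0.787, 0.705 and 1.00% of all kept cells were. The mean was 47.3% ± 1.57 (SD, n = 4). Groups of at least 100 Ezr-high cells, linked at distances of up to 50 position units, are called masses here. Each of the 8 sections, told apart by position, had 1 mass nearest its centre, the central mass, with 293 to 540 Ezr-high cells. A further 13 lateral masses, long thin bands with 123 to 385 Ezr-high cells, lay farther out in 7 of the sections: 2 bands in 6 of them and 1 in another. The 1 section without lateral masses, on coverslip 1, had a single mass, which counts as central here. Central masses had their middle 294 to 942 position units from the middle of the section and lateral masses 1326 to 2217. In all, 2807 Ezr-high cells lay in central masses, 2704 in lateral masses and 1203 outside masses, as thin curved lines, scattered cells and smaller bands. The share inside masses was 82.1%, and 67.3% to 94.6% by section.

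**Figure D1:**
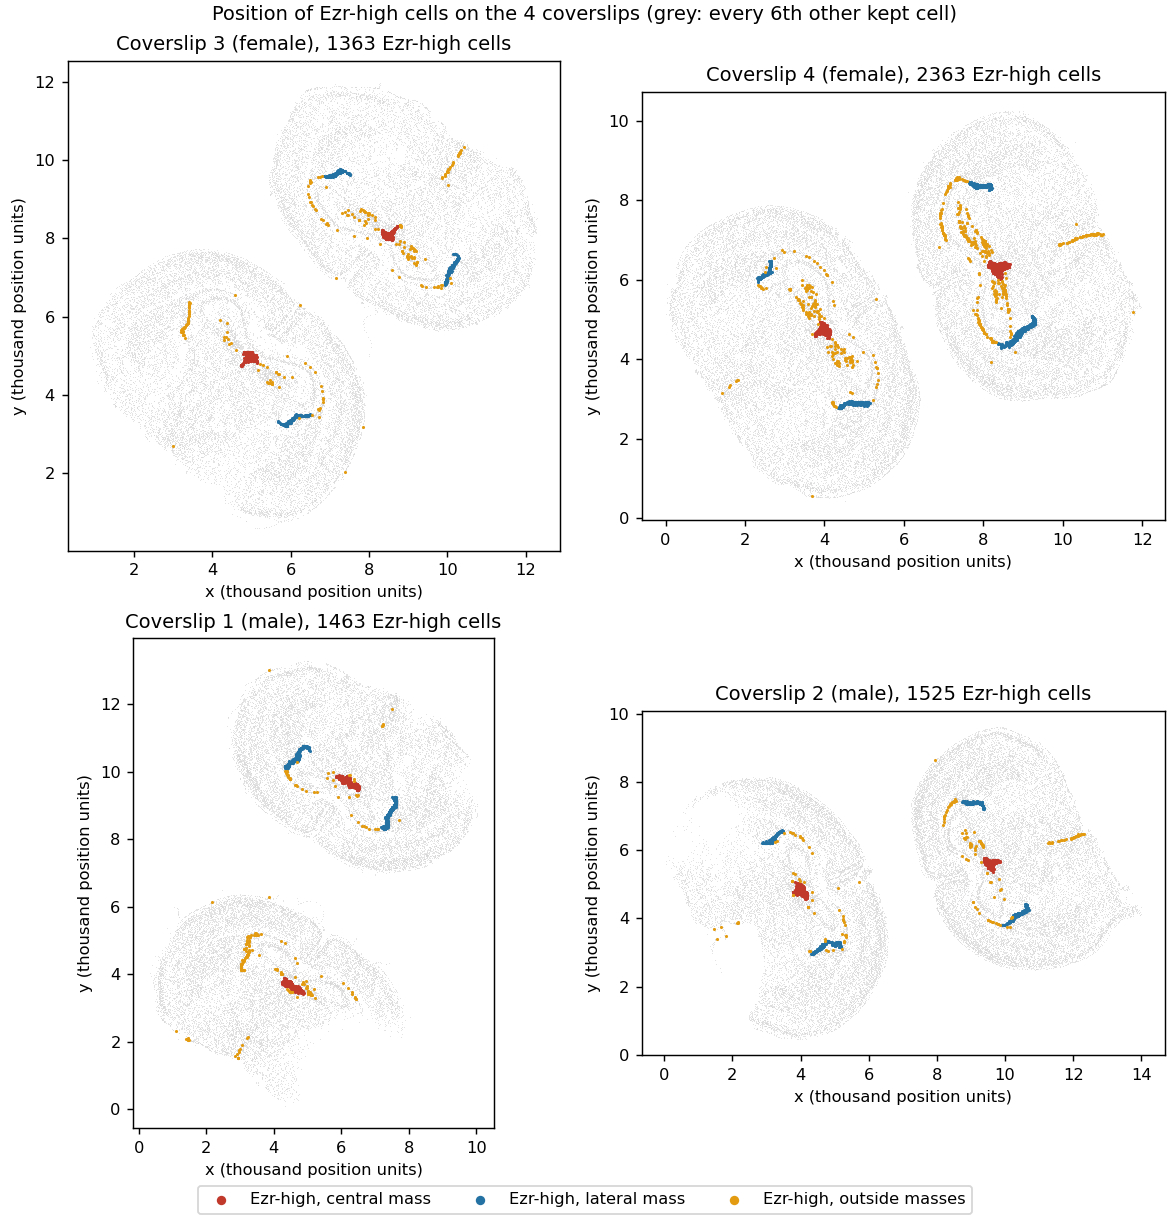
Position of Ezr-high cells on the female coverslips 3 and 4 and on the male coverslips 1 and 2, each with 2 sections, on axes of position units scaled as labelled. Red points are in central masses, blue points in lateral masses and orange points outside masses, and grey points are every 6th other kept cell. A central mass was found in each of the 8 sections, and 13 lateral masses in 7 of them.

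Few enclosed gaps between cells were found in these maps. Gaps were taken as stretches of at least 10 grid points, 20 units apart, that lay at least 40 units from every segmented cell and did not reach the outside of the tissue. Coverslips held 5 to 16 of them. Within 60 units of a gap lay 0.0684, 2.56, 0 and 0% of Ezr-high cells on coverslips 1 to 4. Of the other kept cells 0.149, 0.0453, 0.0552 and 0.0184% lay there, so the Ezr-high share was higher on coverslip 2 alone. The distance of the cells from an open ventricle was thus not measured.

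The share of kept cells that were Ezr-high was 0.850, 0.787, 0.705 and 1.00% on coverslips 1 to 4, a mean of 0.836% ± 0.126 (SD, n = 4). By section it ran from 0.514% to 1.29%. A count threshold takes in more cells where depth is higher: with every coverslip's counts thinned at random in 1 proportion, so that its median cell came to the lowest median of 123 counts, the shares were 0.850, 0.647, 0.515 and 0.467%. The order of the coverslips changed under thinning, so no order is read from these shares.

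The working name, ventricular or choroid epithelial cells, could not be checked with this panel. None of the 12 listed markers of choroid plexus epithelium and 1 of the 6 of ependyma, Vim, is in the panel. Gpc3, the gene of a glypican, had 2.53, 1.92, 2.65 and 2.88 counts per cell in Ezr-high cells on coverslips 1 to 4, against 0.276, 0.255, 0.341 and 0.506 in all other kept cells. Ror1, the gene of a receptor for Wnt5a, had 1.00, 0.682, 1.11 and 1.05 counts per Ezr-high cell, against 0.103, 0.105, 0.121 and 0.134 per other cell. On every coverslip both genes were higher in Ezr-high cells than on any coverslip in the others. Both came with the working name, so their levels describe the cells and are no check of it. Ezr itself averaged 15.2 ± 1.20 counts per Ezr-high cell and 0.525 ± 0.121 per other cell (SD, n = 4). Epcam, the gene of an adhesion protein of many epithelia, had 0.187, 0.0944, 0.135 and 0.124 counts per Ezr-high cell, below the level of the highest blank on each of the 4 coverslips. With the defining markers of choroid plexus and ependyma unmeasured, the name was not tested, and the cells are called by their rule here.

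Markers of other cell types were summed beside these. Of the 6 microglia markers, among them Csf1r, which chose the cells, none lay above every blank on all coverslips, in Ezr-high cells or in the others. Their levels summed to 0.500 to 1.04 counts per Ezr-high cell, against 1.07 to 1.92 in the others. The 5 inhibitory neuron markers summed to 0.383 to 1.18 counts, against 5.31 to 10.2, and none of them lay above every blank on all coverslips in Ezr-high cells. The 2 border macrophage markers, Mrc1 and Lyve1, summed to 0.178 to 0.253 counts, against 0.250 to 0.306. Both lay at or below the highest blank on all 4 coverslips in Ezr-high and other cells alike, so their levels were not measured. The 3 excitatory neuron markers summed to 0.982 to 1.77 counts, against 3.48 to 6.62. The 2 endothelial markers, among them Cldn5, which chose the cells, summed to 0.624 to 1.01 counts, against 2.01 to 3.10. That sum was lower through Cldn5 alone, which the rule limited. Pecam1, the other marker, averaged 0.735 ± 0.142 counts per Ezr-high cell and 0.715 ± 0.148 per other cell (SD, n = 4). The 2 mural cell markers summed to 0.614 to 1.16 counts, against 1.10 to 1.87. Here the sum was lower through Cspg4, also a marker of the oligodendrocyte lineage, at 0.198 ± 0.0629 counts, against 0.889 ± 0.223. Pdgfrb was not lower, at 0.704 ± 0.178 counts, against 0.623 ± 0.121 (SD, n = 4). The 4 markers of the oligodendrocyte lineage summed to 2.03 to 2.95 counts, against 2.74 to 4.56. Pdgfra, the measured marker of fibroblasts and one of those 4, stood at 1.74 to 2.54 counts, against 1.13 to 1.77. The 5 markers of astrocytes and radial glia, one of which, Slc1a3, chose the cells, were all above the blanks and summed to 10.1 to 16.8 counts, against 7.78 to 12.3, of which the transcription factor gene Sox9 gave 8.94, 7.26, 8.34 and 11 on coverslips 1 to 4. The sum was higher through Sox9 alone: Gfap, Aldh1l1, Aqp4 and Slc1a3 averaged 1.67 ± 0.728, 0.571 ± 0.245, 0.980 ± 0.183 and 0.805 ± 0.169 counts per Ezr-high cell, against 2.15 ± 0.529, 0.978 ± 0.484, 1.67 ± 0.341 and 2.81 ± 0.337 per other cell (SD, n = 4).

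Counts of Ezr formed a continuous range across the threshold. Just inside it, 1604 cells held 8 or 9 counts of Ezr, and just outside it 2624 cells that met the other conditions held 6 or 7. Cells just inside had 1.11 ± 0.0533 counts of Gpc3 and cells just outside 0.679 ± 0.103 (SD over 4 coverslips). Of their 10 nearest cells 32.1% ± 3.32 were Ezr-high for cells just inside and 20.5% ± 3.83 for cells just outside. Among Ezr-high cells, 63.2% ± 3.39 of the nearest cells were Ezr-high where a cell held 25 or more counts of Ezr. Gpc3 reached 4.86 ± 1.12 counts in these 803 cells, Id1 6.19 ± 1.30 and Fzd4 2.73 ± 0.497. Gfap, the gene of the astrocyte filament protein, stood at 0.902 ± 0.358 counts in them and at 2.50 ± 1.34 in cells with 8 or 9 counts of Ezr. The median total was 126 gene counts in cells with 8 or 9 counts of Ezr and 304 in those with 25 or more, so depth moved with these levels and its part was not tested.

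**Figure D2:**
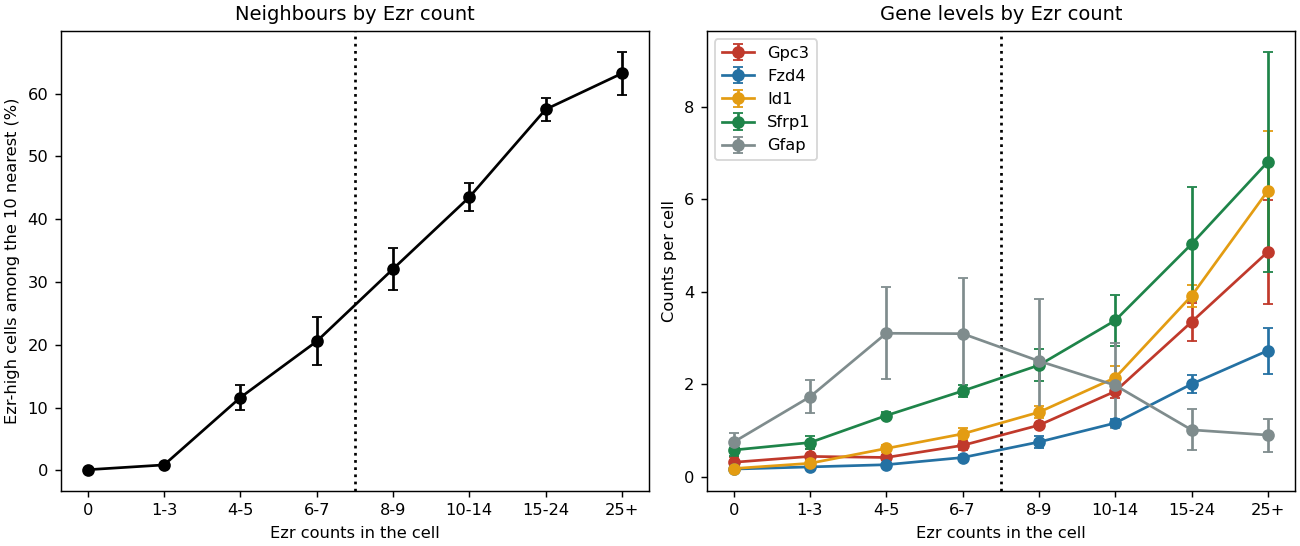
Percent of the 10 nearest kept cells that were Ezr-high (left) and counts per cell of 5 genes (right) against the Ezr counts of a cell, for kept cells that met the conditions on Slc1a3, Csf1r and Cldn5. Points are means and bars SD over 4 coverslips, and the dotted line is the threshold of 8 counts. The percent was 20.5 at 6 or 7 counts and 32.1 at 8 or 9 counts.

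Ezr-high cells were first set against all other kept cells, to show which measured genes differ between them. They held more RNA of 6 Wnt receptor genes, 3 Wnt antagonist genes and the Wnt carrier gene Wls, and less of neuronal genes such as Meg3, Gad1 and Sst. Of 134 genes tested, 22 were called higher (16.4%) and 21 lower (15.7%). A gene was called when its counts per cell volume, summed per coverslip, differed by more than 2-fold in edgeR's quasi-likelihood test with coverslip as a block (Benjamini-Hochberg adjusted p under 0.05), and when it lay above every blank on every coverslip in the class where it was higher. All of these calls had 1 direction over the 4 coverslips, which passing a 2-fold test on the same coverslips favours and which adds no support. SE in this fit was 0.14 to 0.18 on the log2 scale for all genes, since edgeR pooled the spread over genes, and the SD between coverslips is given where it matters.

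Among 17 tested receptor and cofactor genes 6 were higher and 1 lower, with a median log2 difference of 0.63, against -0.08 over all 134. The Frizzled receptor gene Fzd7 had 2.19, 1.18, 2.59 and 2.14 counts per Ezr-high cell on coverslips 1 to 4, against 0.223, 0.230, 0.319 and 0.323 per other cell. Fzd4, the receptor gene for Wnt and norrin signals, had 1.49, 1.27, 1.58 and 1.69, against 0.22, 0.252, 0.247 and 0.298. In both genes every coverslip's Ezr-high level was above every level of the others, which lay below the highest blank on at least 1 coverslip. The log2 difference per volume was 2.99 ± 0.16 for Fzd7 (SE, edgeR adjusted p = 5.07e-31) and 2.70 ± 0.16 for Fzd4 (edgeR adjusted p = 2.14e-24). Against the highest blank of the other cells or their own level, whichever was higher on a coverslip, Fzd7 was at least 6.51-fold and Fzd4 at least 5.4-fold higher per volume. The co-receptor gene Lrp5 (log2 2.21) and the receptor genes Fzd5, Fzd2 (log2 1.78) and Fzd6 (log2 1.36) were higher as well. In the other cells Fzd5 lay above the highest blank on none of the 4 coverslips, Fzd2 on 1 and Fzd6 on 2, so Fzd5 was at least 4.08-fold, Fzd2 at least 2.57-fold and Fzd6 at least 2.13-fold higher. Lrp5 stood at 2.70 ± 0.352 counts per Ezr-high cell and 0.642 ± 0.103 per other cell (SD, n = 4). Fzd9 was lower, by at least 2.44-fold against the highest blank of the Ezr-high cells. The call of Fzd6 was lost without coverslip 1 (log2 1.26), without coverslip 3 (log2 1.29), without the coverslip block and at 6 counts of Ezr.

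Among 7 antagonist genes 3 were higher and none lower, with a median log2 difference of 1.13. Sfrp1 had 4.27, 2.72, 4.41 and 4.99 counts per Ezr-high cell on coverslips 1 to 4, against 0.553, 0.539, 0.689 and 0.828 per other cell. Its difference of log2 2.77 ± 0.16 (SE, edgeR adjusted p = 1.31e-26), or 6.84-fold, varied by 0.22 between coverslips (SD). Sfrp5 (log2 2.18) and Trabd2b, the gene of a membrane protease that cuts Wnt ligands, were higher too. Trabd2b lay below the highest blank of the other cells on all 4 coverslips and was at least 2.18-fold higher. Sfrp5 had 1.42, 0.919, 1.24 and 1.05 counts per Ezr-high cell, against 0.292, 0.242, 0.284 and 0.295 per other cell, where it did not lie above every blank.

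Of the 19 tested genes that encode or export Wnt ligands, Wls and Wnt11 were higher and Wnt7b was lower. The list's median of -0.08 was close to that of all genes tested, of which 16.4% were higher and 15.7% lower. Wls had 2.70, 1.63, 2.42 and 2.09 counts per Ezr-high cell on coverslips 1 to 4, against 0.290, 0.251, 0.308 and 0.356 per other cell, with no overlap. That is log2 3.00 ± 0.16 (SE, edgeR adjusted p = 2.50e-31), though Wls did not lie above every blank in the other cells. Wnt11 (log2 2.09) stood at 0.323 ± 0.0897 counts per Ezr-high cell and 0.0819 ± 0.0117 per other cell, where it lay below the highest blank, and its call was lost with sections as replicates. Wnt7b, a ligand of vessel growth in the brain, stood at 0.210 ± 0.121 counts per Ezr-high cell, not above every blank, and at 1.04 ± 0.239 per other cell. Of 16 genes of the pathway inside the cell, 3 were higher and 3 lower: the transcription factor genes Lef1 (log2 1.69), Tcf7l1 (log2 1.45) and Nfatc1 (log2 1.55) against Apc (log2 -1.47), Apc2 (log2 -2.33) and the kinase gene Prkce (log2 -3.02). These counts lie close to the shares over all genes tested. Nfatc1 lay below the highest blank of the other cells on all 4 coverslips. Library totals in place of volume moved the median of all genes by 0.28 and called 26 genes higher and 21 lower. Lef1 had 1.65, 1.19, 1.88 and 2.31 counts per Ezr-high cell, against 0.432, 0.484, 0.612 and 0.897 per other cell.

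Of 9 tested genes for heparan sulphate proteoglycans 2 were higher and 3 lower, where 16.4% of all 134 genes were higher and 15.7% lower. Sdc4, a syndecan gene, had 4.53, 3.62, 4.52 and 4.14 counts per Ezr-high cell on coverslips 1 to 4, against 0.490, 0.578, 0.553 and 0.673 per other cell, or log2 3.01 ± 0.16 (SE, edgeR adjusted p = 6.62e-32). The opposite held for Sdc3, a syndecan gene of neurons, with 0.539, 0.259, 0.649 and 0.807 counts, against 9.73, 6.11, 10.0 and 8.61 (log2 -3.88). Gpc4 was higher (log2 1.45), and Gpc5 (log2 -3.98) and Gpc1 (log2 -2.03) were lower. Gpc5 did not lie above every blank in Ezr-high cells, so its level of 1.64 ± 0.257 counts per other cell was at least 6.84-fold above theirs per volume.

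Outside the Wnt lists, Slc9a3r1, the gene of a scaffold protein that binds ezrin, had 3.20, 2.31, 2.82 and 4.04 counts per Ezr-high cell on coverslips 1 to 4, against 0.707, 0.637, 0.717 and 1.19 per other cell. Its log2 difference was 2.08 ± 0.16 (SE, edgeR adjusted p = 1.80e-12), with no overlap. Musk, the receptor kinase gene known from the nerve-muscle synapse, had 1.03, 0.723, 1.44 and 1.33 counts per Ezr-high cell, against 0.0573, 0.0504, 0.0687 and 0.0710 per other cell, which lay below the highest blank on all 4 coverslips. Musk was thus at least 4.38-fold higher per volume, and its fitted log2 difference of 4.29 ± 0.18 (SE, edgeR adjusted p = 3.86e-58) was taken against a level that was not measured. Of 8 forebrain patterning genes Sox9 (log2 2.67) and Id1, the gene of an inhibitor of differentiation factors (log2 2.63), were higher, and Sox10, a factor gene of oligodendrocytes that lay below the highest blank in Ezr-high cells (log2 -2.51), lower. Id1 had 3.05, 2.43, 3.25 and 3.21 counts per Ezr-high cell, against 0.455, 0.458, 0.509 and 0.723 per other cell. The filament gene Vim (log2 2.40) and the lipid carrier gene Apoe (log2 1.57) were higher as well. Vim averaged 8.67 ± 1.08 counts per Ezr-high cell and 1.85 ± 0.562 per other cell, and Apoe 25.2 ± 8.94 per Ezr-high cell and 9.18 ± 2.93 per other cell (SD, n = 4). Coverslip values of Musk and Vim pool unlike sections. In central masses Musk had 1.10 and 0.904 counts in the 2 sections of coverslip 1, and 1.19 and 0.254 on coverslip 2. On coverslip 3 it had 0.256 and 2.64 counts, and on coverslip 4 it had 0.417 and 2.35. Vim had 5.22 and 13.5 counts there on coverslip 3. The part of genotype in this was not tested.

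**Figure D3:**
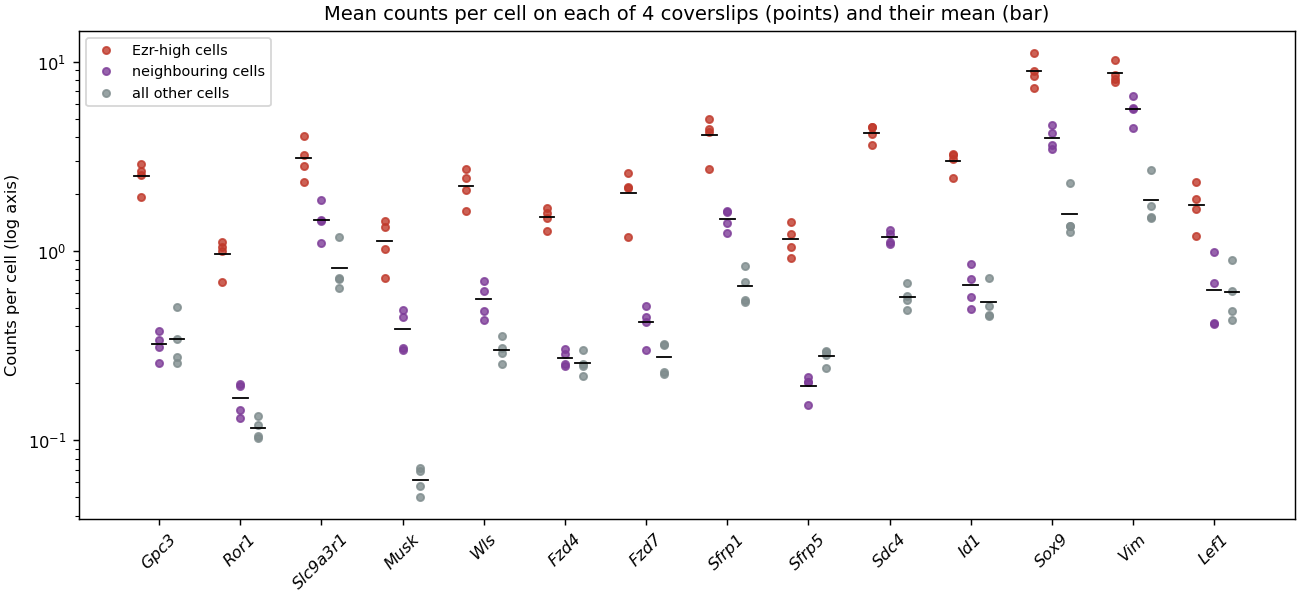
Mean counts per cell of 14 genes in Ezr-high cells (red), in other kept cells within 50 units of an Ezr-high cell (purple) and in all other kept cells (grey), on a log axis. Points are the 4 coverslips and bars their means. Musk stands at a mean of 1.13 counts in Ezr-high cells, 0.385 in neighbouring cells and 0.0619 in all others.

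Several of the genes lower in Ezr-high cells are known from neurons. Meg3, a noncoding RNA abundant in neurons, had 6.32, 6.85, 10.6 and 10.8 counts per Ezr-high cell on coverslips 1 to 4, against 48.8, 56.9, 66.9 and 93.1 per other cell (log2 -2.81 ± 0.17, edgeR adjusted p = 1.93e-24). The hormone gene Sst (log2 -3.86), the GABA synthesis genes Gad1 (log2 -3.56) and Gad2 (log2 -3.08) and the cortical factor genes Rorb (log2 -3.22) and Bcl11b (log2 -2.99) were lower. Sst, Gad1, Gad2 and Rorb did not lie above every blank in Ezr-high cells, against whose highest blank Sst was at least 5.98-fold and Rorb at least 5.73-fold higher per volume in the other cells. Cx3cl1, the gene deleted in the Cx3cl1(-/-) section of each coverslip, stood at 1.04 ± 0.334 counts per Ezr-high cell and 3.09 ± 0.635 per other cell, pooled over both genotypes (log2 -1.47). The astrocyte filament gene Gfap did not pass the test, at 1.67 ± 0.728 counts per Ezr-high cell and 2.15 ± 0.529 per other cell (log2 -0.28, edgeR adjusted p = 1.00).

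Cells beside the Ezr-high cells share their section and place. Kept cells that were not Ezr-high but lay within 50 units of one numbered 41212, and they held 2.50 ± 0.334 counts of Ezr each (SD, n = 4), with a highest blank of 0.0671 to 0.136 counts. Against them Ezr-high cells had 15 genes higher (11.2% of 134) and 19 lower (14.2%). Of the genes called higher, Sfrp5, Fzd4, Fzd7, Id1 and Wls had the largest differences. Sfrp5 had 1.42, 0.919, 1.24 and 1.05 counts per Ezr-high cell on coverslips 1 to 4, against 0.203, 0.154, 0.215 and 0.203 per neighbouring cell, or log2 2.43 ± 0.10 (SE, edgeR adjusted p = 5.12e-09). Fzd4 had 0.246, 0.254, 0.287 and 0.303 counts per neighbouring cell, against which the Ezr-high level given above was 5.02-fold higher per volume. Fzd7 (log2 2.10), Id1 (log2 2.06), Wls (log2 1.85), Trabd2b (log2 1.76), Fzd5 (log2 1.75) and Sdc4 (log2 1.69) followed. For each of these genes all 4 Ezr-high levels lay above all 4 neighbouring levels.

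Further genes are given beside their level in neighbouring cells. Musk stood at 0.385 ± 0.0974 counts per neighbouring cell (log2 1.40 for Ezr-high against neighbouring cells), and Sox9 at 3.97 ± 0.546 (log2 1.02, not called). Slc9a3r1, at 1.45, 1.10, 1.44 and 1.86 counts per neighbouring cell on coverslips 1 to 4, differed by log2 0.93 ± 0.08 from Ezr-high cells and did not pass the 2-fold test (edgeR adjusted p = 1.00). It passed it against neighbours taken within 100 units (log2 1.16). The markers of astrocytes and radial glia, among them Slc1a3, summed to 13.3 to 23.0 counts per neighbouring cell, and those of inhibitory neurons to 1.54 to 3.70. Neighbouring cells had no limit on Slc1a3, so they can include cells that the rule kept out by it. The part of this limit in the differences of astrocyte genes was not tested. Gfap was lower in Ezr-high cells, at 1.36, 1.14, 1.44 and 2.75 counts on coverslips 1 to 4, against 4.99, 4.26, 5.56 and 8.50 per neighbouring cell (log2 -1.98 ± 0.10, edgeR adjusted p = 9.81e-08). The glycolysis gene Aldoc, an astrocyte gene, was lower at 0.972 ± 0.409 counts per Ezr-high cell and 2.91 ± 1.11 per neighbouring cell (log2 -1.73), as were the ligand genes Wnt7a and Wnt7b (log2 -1.25), neither above every blank in Ezr-high cells. Of the lists, 3 of 7 antagonist genes were higher (Sfrp1, Sfrp5 and Trabd2b), and of 17 receptor genes Fzd4, Fzd5 and Fzd7 were higher and Fzd9 lower. Of 19 ligand and secretion genes Wls, Wnt11 and Wnt9a were higher. Of 9 proteoglycan genes Sdc4 was higher, and Sdc3 and Gpc5 were lower.

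Scaling moved this comparison. With TMM factors in place of cell volume 9 genes were higher and 20 lower, and with library totals also 9 and 20, as the median difference of all genes moved by -0.15 and -0.19. Wnt11, Wnt9a and Sfrp1 then lost their calls, at log2 1.27, 1.08 and 1.16 with TMM factors. Wnt9a also lost its call without coverslip 1, 3 or 4, Wnt7b without coverslip 1 or 3, and Wnt11 and Sfrp1 without coverslip 3. Against neighbours within 25 units 12 genes were lower, and Wnt11, Wnt9a, Wnt7b, Sfrp1 and Sst were not called.

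Some Ezr-high cells were kept out by Slc1a3 alone. Of 10333 kept cells with at least 8 counts of Ezr, 6714 met the other conditions, 3446 had 5 or more counts of Slc1a3, 159 had 3 or more of Csf1r and 159 had 5 or more of Cldn5. The 3310 Ezr-high cells that failed by Slc1a3 alone numbered 424, 332, 758 and 1796 on coverslips 1 to 4, and their median volume was 1009, 1159.9, 1180.3 and 1006 units. Of their 10 nearest cells 7.83, 6.20, 7.56 and 7.71% were Ezr-high with low Slc1a3 themselves. They held 13.5 ± 3.08 counts of Gfap, 5.94 ± 1.01 of the water channel gene Aqp4 and 0.239 ± 0.0109 of Gpc3, where the Ezr-high cells with low Slc1a3 held 2.49 ± 0.411 of Gpc3.

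Between these classes 17 of 134 genes were higher in the Ezr-high cells with low Slc1a3 (12.7%) and 14 lower (10.4%). Fzd4 led with 1.49, 1.27, 1.58 and 1.69 counts per cell on coverslips 1 to 4, against 0.196, 0.277, 0.290 and 0.342 in cells with high Slc1a3. That is 8.63-fold per volume (log2 3.11 ± 0.14, SE, edgeR adjusted p = 2.09e-07). Id1 (log2 2.31), Sfrp5 (log2 2.30), Fzd7 (log2 2.15), Trabd2b (log2 2.11), Wls (log2 2.00) and Lef1 (log2 1.95) were higher. So were the platelet-derived growth factor receptor gene Pdgfra (log2 2.42) and the vessel gene Pecam1 (log2 2.23). Pecam1 stood at 0.865, 0.556, 0.688 and 0.831 counts, against 0.193, 0.196, 0.296 and 0.297. Trabd2b did not lie above every blank in cells with high Slc1a3. The rule itself limited Cldn5 in both classes. Slc9a3r1, Sox9 and Vim differed by log2 -0.01 ± 0.11, 0.07 ± 0.10 and -0.13 ± 0.11, and none passed the test. Genes that led against all other cells were not called here either: Musk differed by log2 0.29 ± 0.13, Sfrp1 by 0.60 ± 0.10, Lrp5 by 0.72 ± 0.09 and Sdc4 by 0.75 ± 0.10 (SE). Per cell Musk stood at 1.13 ± 0.324 counts with low and 1.47 ± 0.528 with high Slc1a3, and Sdc4 at 4.2 ± 0.428 with low and 3.91 ± 0.318 with high Slc1a3 (SD, n = 4).

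Lower in the cells with low Slc1a3 were genes known from astrocytes: Aldoc (log2 -2.86), Gfap (log2 -2.41), Aqp4 (log2 -1.96) and the folate enzyme gene Aldh1l1 (log2 -1.80). Slc1a3, by which the classes were divided, is itself among the listed astrocyte markers. The part of this division in the differences of astrocyte genes was not tested. The ligand genes Wnt7a (log2 -2.86) and Wnt7b (log2 -2.11), the receptor gene Fzd9 (log2 -2.12), the proteoglycan genes Gpc5 (log2 -3.39) and Sdc3 (log2 -1.63) and the patterning genes Etv4 (log2 -2.02) and Emx2 (log2 -1.36) were lower too. Wnt7a, Wnt7b, Fzd9, Gpc5, Etv4 and Emx2 did not lie above every blank in the cells with low Slc1a3. Emx2 had 0.133, 0.121, 0.219 and 0.452 counts in cells with low Slc1a3, against 0.521, 0.515, 1.20 and 1.34 in cells with high Slc1a3, and per volume its levels overlapped between the classes. The higher receptor genes also took in Fzd5, Fzd6 and Adgra2, a cofactor gene for Wnt7 signals, with Wnt3 among the ligands and Sdc1 among the proteoglycans. TMM factors gave 13 genes higher and 19 lower, and DESeq2 11 and 15, as the median difference of all genes moved by -0.13 and -0.12. The call of Wnt3 was lost without coverslip 1, 3 or 4, that of Fzd6 without coverslip 1, 2 or 3, and those of Sdc1 and Emx2 without coverslip 3.

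Wnt5a-high cells had at least 4 counts of Wnt5a, fewer than 8 of Ezr and the same limits on Slc1a3, Csf1r and Cldn5. These cells were set beside the Ezr-high cells as a class rich in a Wnt ligand gene in place of Ezr. They numbered 262, 388, 372 and 720 on coverslips 1 to 4 and held 1.55 ± 0.217 counts of Gpc3 and 0.459 ± 0.0860 of Ror1 each, with 7.03 to 32.5 counts of inhibitory neuron markers in sum. Of 133 genes tested, Wnt5a left out, 16 were higher (12%) and 24 lower (18.0%) in Ezr-high cells. Musk (log2 3.59), Sox9 (log2 3.17), Sdc4 (log2 2.84), Fzd4 (log2 2.58), Sfrp1 (log2 2.57), Id1 (log2 2.44) and Fzd5 (log2 2.39) were higher. Musk, Fzd4 and Fzd5 lay below the highest blank of the Wnt5a-high cells, 0.312 to 0.492 counts, on all 4 coverslips and were at least 3.57, 4.90 and 3.32-fold higher. Sox9 had 8.94, 7.26, 8.34 and 11 counts per Ezr-high cell on coverslips 1 to 4, against 1.44, 0.814, 1.09 and 1.80 per Wnt5a-high cell (log2 3.17 ± 0.15, SE, edgeR adjusted p = 1.14e-05), with no overlap.

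Among the genes lower in Ezr-high cells were the Wnt5a receptor gene Ror2 (log2 -1.94), the ligand genes Wnt4 (log2 -1.78), Wnt16 (log2 -2.34) and Wnt7b (log2 -2.23), the cofactor gene Adgra2 (log2 -2.09) and the antagonist gene Sfrp2 (log2 -1.90). Of these, only Wnt4 and Adgra2 lay above every blank in Ezr-high cells. Ror2 had 0.228, 0.159, 0.172 and 0.223 counts per Ezr-high cell, against 1.06, 0.889, 0.860 and 0.956 per Wnt5a-high cell. Wnt4 had 0.571, 0.473, 0.593 and 0.729, against 3.06, 3.11, 2.01 and 2.14. The neuronal genes Gad1 (log2 -4.96) and Gad2 (log2 -3.96) were lower by most, and neither lay above every blank in Ezr-high cells. Of 18 ligand and secretion genes 2 were higher (Wls and Wnt11) and 3 lower, and of 17 receptor genes 4 were higher (Fzd4, Fzd5, Fzd7 and Lrp5) and 2 lower. The split turned with scaling: TMM factors gave 22 higher and 19 lower, and library totals 23 and 16, as the median difference of all genes moved by 0.43 and 0.55. Wnt4 then lost its call (log2 -1.35 and -1.23) and Sfrp2 lost its call with library totals. The calls of Wls were lost without coverslip 1, 3 or 4, those of Lrp5 without 3 or 4, and those of Wnt11, Fzd7 and Gpc4 without coverslip 3. At 6 or more counts of Wnt5a 10 genes were higher, and Wls, Fzd7, Lrp5, Gpc4, Gpc5 and Slc9a3r1 were among those not called.

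**Figure D4:**
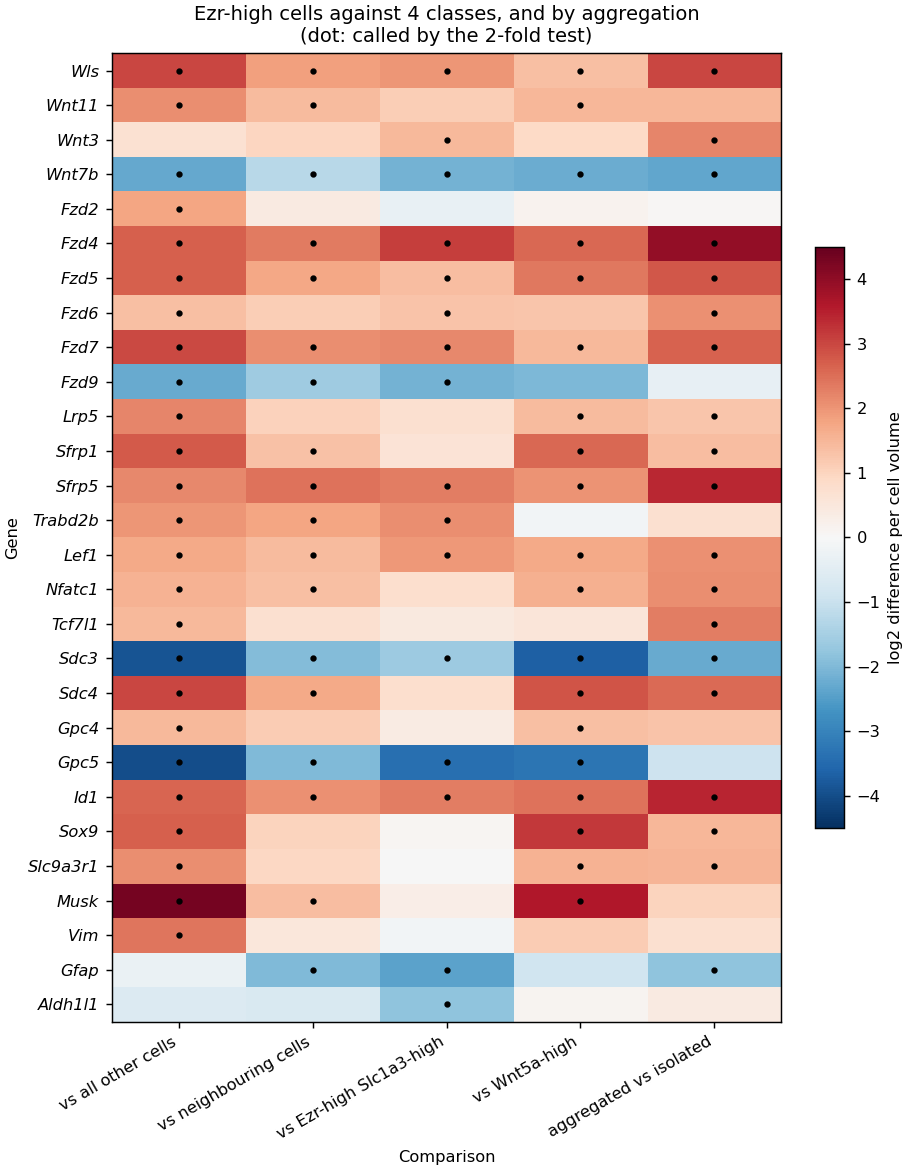
Log2 difference per cell volume of 28 genes in 5 comparisons: Ezr-high cells against all other cells, neighbouring cells, Ezr-high Slc1a3-high cells and Wnt5a-high cells, and aggregated against isolated Ezr-high cells. Red is higher and blue lower in the Ezr-high or aggregated cells, and a dot marks a gene called by the 2-fold test. Fzd4 stands at 2.70, 2.33, 3.11, 2.58 and 3.94 in that order, and the first 4 comparisons share the Ezr-high cells.

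Ezr-high cells were also compared with each other by how they lay. Those with at least 5 other Ezr-high cells within 50 units, called aggregated, numbered 1309, 1329, 1150 and 1896 on coverslips 1 to 4, and those with none, called isolated, 60, 64, 82 and 114. Aggregated cells held more RNA of 5 Wnt receptor genes, Wls and Id1, and isolated cells more of Gfap, of the patterning gene Emx2 and of neuronal genes such as Gad1. Gpc3, untested, had 2.81, 2.16, 3.08 and 3.54 counts per aggregated cell, against 0.267, 0.531, 0.354 and 0.395 per isolated cell. Ror1 had 1.10, 0.761, 1.28 and 1.28, against 0.217, 0.219, 0.159 and 0.123.

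Of 134 genes 29 were higher (21.6%) and 11 lower (8.21%) in aggregated cells. Isolated cells were larger, with median volumes of 814 to 1013 units over the coverslips, against 657 to 710 for aggregated cells. The test took counts per volume, and the split into higher and lower genes moved with scaling, as given below. Fzd4 had 1.64, 1.44, 1.84 and 2.07 counts per aggregated cell on coverslips 1 to 4, against 0.15, 0.156, 0.207 and 0.123 per isolated cell, where it did not lie above every blank. Id1 had 3.37, 2.75, 3.76 and 3.92, against 0.417, 0.328, 0.512 and 0.500, or log2 3.42 ± 0.14 (SE, edgeR adjusted p = 2.29e-06). Wls had 2.88, 1.78, 2.75 and 2.51, against 0.717, 0.344, 0.378 and 0.316 (log2 3.00 ± 0.21, edgeR adjusted p = 4.24e-05). In each of these genes all 4 aggregated levels were above all 4 isolated levels. Sfrp5 (log2 3.40), Fzd5 (log2 2.79), Fzd7 (log2 2.65), Sdc4 (log2 2.53), Tcf7l1 (log2 2.32), Wnt3 (log2 2.19) and the retinoic acid receptor gene Rara (log2 2.37) followed, of which Sfrp5, Wnt3 and Rara did not lie above every blank in isolated cells. Receptors had 5 of 17 genes higher and none lower, with a median of 0.71, where that of all 134 genes was 0.44. Proteoglycans had Sdc4, Sdc2 and Gpc6 of 9 higher and Sdc3 and Gpc2 lower.

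Gfap had 1.00, 0.748, 0.960 and 1.73 counts per aggregated cell, against 5.08, 3.64, 4.34 and 8.27 per isolated cell (log2 -1.82 ± 0.14, edgeR adjusted p = 0.000267). Emx2, a patterning gene of the dorsal forebrain, had 0.117, 0.0715, 0.117 and 0.224, against 0.300, 0.594, 0.83 and 1.46 (log2 -2.10). Gpc2 (log2 -2.43), Sdc3 (log2 -2.25), Wnt7a (log2 -1.85), Wnt7b (log2 -2.35), Gad1 (log2 -2.28) and Apc2 (log2 -2.27) were lower as well, and of these and Emx2, Sdc3 and Apc2 alone lay above every blank in aggregated cells. Inhibitory neuron markers summed to 0.321 to 0.695 counts per aggregated cell, against 1.14 to 2.90 per isolated cell, and markers of astrocytes and radial glia to 9.38 to 16.8, against 12 to 16.5. The part of RNA from other cells in these differences was not tested. Ezr averaged 16.1 ± 1.54 counts per aggregated cell and 9.74 ± 0.265 per isolated cell, nearer the threshold. With library totals 14 genes were higher and 19 lower, and with TMM factors 17 and 15, as the median difference of all genes moved by -0.69 and -0.50. DESeq2 called 9 higher and 14 lower. Lrp5, Sfrp1, Sox9, Sox7, Sdc2, Gpc6 and Slc9a3r1 lost their calls with either scaling, and Wnt3 and Fzd6 with library totals. Lrp5 was also not called without coverslip 1, 3 or 4, and Sfrp1, Sox9 and Sox7 without coverslip 3 or 4.

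The central and lateral masses differed from each other in each of the 7 sections with both. This split was drawn after the maps were seen and is given as a description, with no test. The genes named for it were chosen after their values were seen, so they do not show what share of all measured genes differs in this way. Values are counts per cell over 8 sections for central and 7 for lateral masses, without the mass described below. In central masses Meg3 had 10.8 counts in the lowest section, a median of 16.4 and 21.9 in the highest, against 1.73 counts in the lowest section, a median of 2.37 and 3.39 in the highest in lateral masses, with no overlap. Wls averaged 3.18 ± 0.901 in central and 1.76 ± 0.505 in lateral masses (SD over sections), the glutamine synthesis gene Glul 6.90 ± 1.17 in central and 3.67 ± 1.34 in lateral masses, Id1 4.15 ± 1.00 in central and 2.74 ± 0.674 in lateral masses, and Wnt5a 0.737 ± 0.251 in central and 0.416 ± 0.123 in lateral masses. Each was higher in the central mass in 7 of 7 sections.

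Other genes were lower in central masses. In central masses Sfrp5 had 0.497 counts in the lowest section, a median of 0.833 and 1.08 in the highest, against 1.5 counts in the lowest section, a median of 1.90 and 2.38 in the highest in lateral masses, with no overlap. Sfrp1 averaged 3.27 ± 0.960 in central and 5.97 ± 1.36 in lateral masses, Sdc4 3.88 ± 0.543 in central and 5.54 ± 0.780 in lateral masses, Apoe 23.4 ± 9.83 in central and 34.1 ± 11.1 in lateral masses, and Lrp5 2.49 ± 0.422 in central and 3.29 ± 0.516 in lateral masses. Each was lower in the central mass in 7 of 7 sections. Other antagonist and proteoglycan genes did not all go this way: Sdc2 was higher in the central mass in 5 of 7 sections (1.32 ± 0.383 in central and 1.20 ± 0.169 in lateral masses) and Sfrp4 in 4 of 7. Gpc3 stood at 2.52 ± 0.642 in central and 3.45 ± 0.738 in lateral masses, Fzd4 at 2.00 ± 0.528 in central and 1.59 ± 0.329 in lateral masses, and Ezr, which chose the cells, at 16.4 ± 2.07 in central and 15.8 ± 1.95 in lateral masses.

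Outside masses the cells held 0.419 ± 0.317 counts of Id1, 0.243 ± 0.265 of Sfrp5, 0.217 ± 0.176 of Fzd4 and 0.393 ± 0.354 of Gpc3 (SD over 8 sections). Outside masses Gfap had 2.14 counts in the lowest section, a median of 4.71 and 7.38 in the highest, against 0.485 counts in the lowest section, a median of 0.586 and 1.49 in the highest in central masses, with no overlap. The stem cell factor gene Sox2 stood at 5.45 ± 1.54 outside, 3.18 ± 1.45 in central and 3.46 ± 1.62 in lateral masses. When the comparison with all other cells was run on the 1203 cells outside masses alone, 9 genes were called higher and 23 lower. Fzd4 (log2 -0.41), Id1 (log2 -0.45), Sfrp5 (log2 -0.43) and Fzd6 (log2 -0.03) then turned below 0, and Wls, Fzd7, Fzd5, Gpc4, Trabd2b, Slc9a3r1 and Wnt7b were not called. The calls of Musk, Sdc4, Sox9, Sfrp1, Vim, Lrp5, Fzd2 and Wnt11 held there. On the cells in masses alone 24 genes were called higher and 21 lower.

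**Figure D5:**
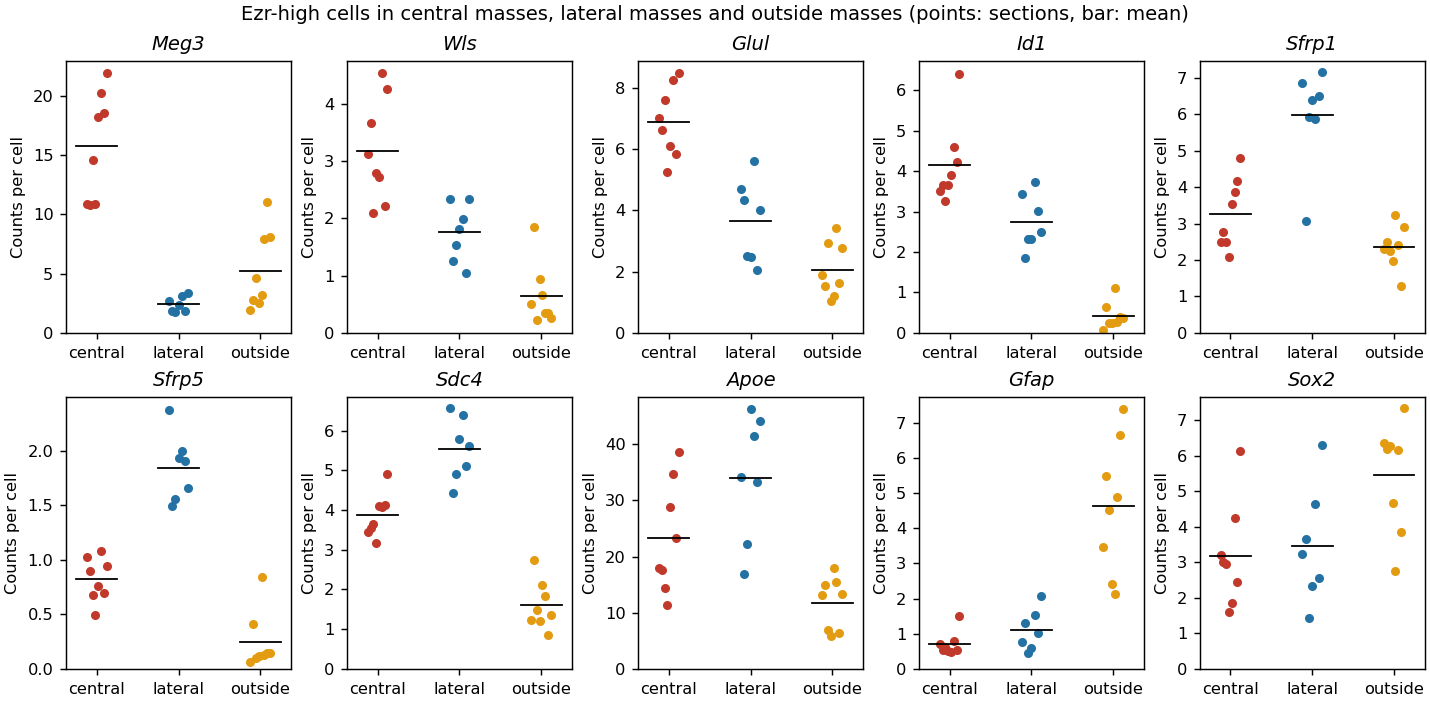
Mean counts per Ezr-high cell of 10 genes in central masses (red, 8 sections), lateral masses (blue, 7 sections) and outside masses (orange, 8 sections). Points are sections and bars their means. Meg3, Wls, Glul and Id1 are higher in central than in lateral masses in each of 7 sections, Sfrp1, Sfrp5, Sdc4 and Apoe are lower, and Gfap is highest outside.

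The lateral mass of coverslip 2 that was left out above lay in squares of the coverslip poor in Ctnnb1, the gene of beta-catenin. Its 123 Ezr-high cells held 11.6 counts of Ezr but 0 of Gpc3, 0.211 of Vim and 0.992 of Apoe, against 13.5, 2.47, 7.64 and 18.7 in the other lateral masses of that coverslip. Fzd4 (1.27, against 1.17), Sfrp5 (1.32, against 1.52) and Id1 (1.76, against 2.01) were not low. The 337 other kept cells beside it were low in the same genes, with 0.190 counts of Vim and 0.445 of Apoe, against 5.38 and 10.4 in the 1900 beside the other lateral masses. Its low levels thus cannot be told apart from those of its surroundings, and how such squares arose was not tested. They held 9993 kept cells on coverslip 1 (5.81%), 4969 on coverslip 2, 1829 on coverslip 3 and 0 on coverslip 4, of which 128 on coverslip 2 were Ezr-high and none on the others, so the cells compared with the Ezr-high cells include them on 3 coverslips. Without such squares the gene calls followed through the alternatives did not change in any of the 6 comparisons.

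Female and male coverslips were compared within the Ezr-high cells, 2 of each, where the smallest p that an exact permutation of 1 gene's values can give is 0.33. Over all genes, edgeR's quasi-likelihood test with TMM factors against no difference called 4 of 134 genes higher in female cells (2.99%) and none lower (0.0%). At an unadjusted p under 0.05, 16 were higher and 10 lower, and DESeq2 called none lower, with 7 lower at an unadjusted p under 0.05. Syt6, the gene of a vesicle protein, had 17.2 and 18.7 counts per 10000 in female Ezr-high cells, against 4.25 and 6.38 in male ones. Its difference was log2 1.69 ± 0.28 (SE, edgeR adjusted p = 7.53e-07). Gad1 had 17.0 and 23.4, against 6.23 and 8.05 (log2 1.43 ± 0.26, edgeR adjusted p = 7.57e-06). In all other cells Syt6 stood at 40.7 and 41.6 in female and 40.4 and 37.2 in male coverslips, and Gad1 at 118 and 145 in female and 135 and 117 in male coverslips.

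Gpc2 (log2 1.10) and Apc2 (log2 0.74) were also higher in female Ezr-high cells, but Gpc2 and Apc2 lost their calls without coverslip 2 or 4, and Apc2 without coverslip 1. Apc2 alone of the 4 lay above every blank on all coverslips, and in male Ezr-high cells Syt6 and Gad1 were at 0.0779 to 0.114 counts per cell. A fit without 1 coverslip leaves 1 coverslip of that sex, which is assumed to vary like the 2 of the other. Without coverslip 3 the test called 7 higher and 3 lower. Inhibitory neuron markers summed to 0.860 and 1.18 counts per Ezr-high cell on female coverslips, against 0.468 and 0.383 on male ones. Syt6 and Gad1 differed by place. In central masses Syt6 had 0.645 and 0.839 counts per cell on female coverslips, against 0.0756 and 0.136 on male ones. Gad1 had 0.120 and 0.191 there on female coverslips, against 0.0499 and 0.0643 on male ones, all below the highest blank. In lateral masses Syt6 lay above the highest blank on no coverslip. Female Ezr-high cells also had the higher median counts, so depth and sex cannot be told apart here, and the part of RNA from neurons was not tested.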

How the data were processed

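The deposited values are raw counts of decoded transcripts per segmented cell, per the file headers, with 40 blank barcodes; the deposited files also give each cell's volume and centre as other measures in unstated units. Decoding and segmentation software is not given in the sources used here. Counts were checked to be whole numbers. Cells under 20 gene counts were left out. All 140 symbols matched RefSeq names.

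Counts were summed per coverslip (n = 4) and class and fitted with edgeR 4.0.16 in R 4.3.3 (glmQLFit, offset of summed volume, coverslip block, glmTreat at 2-fold); both classes of a coverslip come from the same sections, so same-numbered sums are paired by construction. The fit was tested on simulated data with 30 of 134 genes changed 8-fold in the comparison with all other cells, of which 100% were recovered. The changed genes were drawn from those well above the blanks, with the same spread set for all genes and no coverslip effect. Recovery of smaller differences or of genes near the blanks was thus not tested. DESeq2 1.42.0, TMM factors, library totals, no block, other thresholds and leaving out each coverslip were alternatives. A bound is the mean over coverslips of the log ratio per volume to the dimmer class, at its highest blank or its own level, whichever was higher.

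Named genes are the up to 10 called higher and 10 lower by largest difference in each comparison, called members of the Wnt, proteoglycan and patterning lists, Slc9a3r1, Gpc3, Ror1 and measured markers of other cell types; Epcam, the genes of the pathway inside the cell and the genes described by mass were chosen after their values were seen. The members and lists were chosen with earlier results of these data known.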

Additional observations from a re-analysis of the deposited data

Results flagged for a closer look

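In 147 sets of 4 coverslip values, 7 had 1 coverslip far from the other 3, where chance gives about 1 set in 20. Meg3 against all other cells was log2 -2.46 per volume on coverslip 3. Against neighbouring cells Id1 was log2 1.79 on coverslip 4, Trabd2b 2.12 on coverslip 1 and Fzd9 -1.29 on coverslip 3. Against Ezr-high Slc1a3-high cells Id1 was log2 1.64 on coverslip 4 and Wls 1.48 on coverslip 1, and Sfrp5 in aggregated against isolated cells was log2 2.72 on coverslip 4.

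The difference between Ezr-high cells and all other cells itself differed between female and male coverslips for 5 of 134 genes in edgeR's interaction test. It was greater in female coverslips by log2 1.72 ± 0.31 for Syt6 (SE, edgeR adjusted p = 1.22e-05) and by 1.47 ± 0.32 for Gad1 (edgeR adjusted p = 0.000372). Both genes were lower in Ezr-high cells in either sex, by less in female coverslips. Wnt1 (0.92), Adra2c (1.00) and Emx2 (0.89) did not lie above every blank on all coverslips in either class. In the other 4 class comparisons the interaction test of edgeR called 0 genes, with 9 to 24 at an unadjusted p under 0.05; no other tool was run on it.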

How the results depend on the processing

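Over all alternatives, 150 results on named genes gave 1739 of 1880 values with the direction and call of the report, 136 that lost the call, 1 that gained it and 4 that turned sign, all 4 on members outside masses: Fzd4 -0.41, Id1 -0.45, Sfrp5 -0.43 and Fzd6 -0.035, with 9 genes called higher in all. Against neighbouring cells, genes called higher numbered 9 with TMM factors, library totals or DESeq2 and 8 with no replicate block, and genes called lower 9 with no replicate block and 12 within 25 units. Against Ezr-high Slc1a3-high cells, DESeq2 called 11 genes higher, and the fit with no replicate block 10. Against Wnt5a-high cells, 10 were higher at 6 or more counts of Wnt5a. In aggregated against isolated cells, 17 were higher with TMM factors, 14 with library totals and 9 with DESeq2, and 19 lower with library totals. In the comparison of sexes 1 gene was higher when only the 83 genes above every blank were tested; leaving out 1 coverslip, which leaves 1 of that sex, assumed to vary like the 2 of the other, gave 2 to 7 higher and 0 to 3 lower. No paired analysis of the sexes was possible because their coverslips share no number. Leaving out the block changed no count against all other cells, against Wnt5a-high cells or by aggregation by over 1.5 times. The share of kept cells in the Ezr-high gate was 1.16% at 6 counts of Ezr, 0.496% at 12 and 0.620% after thinning, and the share of nearest neighbours in the Ezr-high gate 41.4% for the 30 nearest cells and 40.3% at 12 counts. Alternatives without Ctnnb1-poor squares or on members by mass were chosen after seeing the data. A level at or below the highest blank of its class and coverslip, which reached 0.0671 to 0.492 counts per cell, is not told apart from blanks, and sums of each coverslip pool both genotypes, so no spread between animals of a genotype was measured.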
